A study of Mus musculus with 17 samples.

Results

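The genes of this report activate, desaturate, elongate and make long-chain fatty acids. They were 10 genes chosen by name, Acsl4, Lpcat3, Acsl1, Acsl3, Fads1, Fads2, Elovl5, Scd1, Scd2 and Fasn, of 17555 gene names listed in the 3 tables used. The rule uses names only, with no threshold on a value. Tumor-bearing lungs of mice had been sorted into cell populations for RNA sequencing. KL stands for KrasLSL-G12D/+ with Lkb1fl/fl, and KLG4 mice carried the same alleles and Gpx4m/m. Both genotypes received an adenovirus that expresses Cre through the nose and tamoxifen, and cells were taken 10 weeks after the virus. Per the study's methods, the Gpx4 allele lost exons 5 to 7 through a DreERT2 recombinase that was made only in cells in which Cre had removed a stop cassette and that acted only under tamoxifen, driven by the CAG promoter, and the mice were of C57BL/6 background. Tumor cells, TRMs and MDMs (tissue-resident and monocyte-derived macrophages) gave 2 KL and 2 KLG4 libraries each, 12 libraries in 6 groups. The study describes the mice as sex-matched and 8 to 10 weeks old at the virus, and gives 2 mice per group for the tumor cells. For TRMs and MDMs the sources do not say whether the 2 libraries of a group came from separate mice, so p-values there measure the spread between libraries, which may be technical. The other 5 of 17 samples were not analysed here.

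Fatty acids enter lipids as acyl-CoA. Acyl-CoA synthetases of the ACSL family make it, and ACSL4 prefers arachidonic and adrenic acid, whereas ACSL3 handles monounsaturated acids and sits on lipid droplets. LPCAT3 puts polyunsaturated chains into phospholipids, and ferroptosis, a death by phospholipid peroxidation that GPX4 opposes, is known to need such chains. FADS2, FADS1 and ELOVL5 desaturate and lengthen dietary polyunsaturated acids, FASN builds palmitate, and SCD1 and SCD2 place a double bond in saturated chains to give monounsaturated ones. Alveolar type II (AT2) cells of the lung run several of these steps to make surfactant lipid.

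The 12 libraries held between 9140750 and 36616982 counted reads. Gpx4 was at 94.95 and 76.8 RPKM (reads scaled to gene length and library size) in KL tumor cells and at 56.4 and 61.9 RPKM in KLG4 tumor cells, a log2 difference of -0.53 (adjusted p = 0.036), which did not pass after TMM scaling (-0.45, adjusted p = 0.108) or without either KLG4 library (adjusted p over all alternatives 0.0026 to 0.283). This value counts all exons, removed and retained. In tumor cells, which were sorted as EpCAM-positive and CD31-negative cells (the study's legend adds CD45-negative, its sorting methods CD45.2-positive), epithelial markers were 7 of 7 lower in KLG4 and AT2 markers 10 of 10 lower, and markers of other cells were higher, 8 of 8 for leukocytes, 6 of 6 for neutrophils and 10 of 10 for fibroblasts. The 3 markers of club cells, which are epithelial, were also higher, summing to 3192 and 3927 RPKM in KL and to 6504 and 6642 RPKM in KLG4. TRM libraries held alveolar macrophage markers, with Ear2 between 4093 and 4785 RPKM. The libraries labelled MDMs held neutrophil markers at very high levels, S100a9 between 9379 and 21106 RPKM and Csf3r between 208 and 323 RPKM, whereas Ly6c2 was at most 0.98 RPKM. Their 10 monocyte-derived macrophage markers summed to 504 and 611 RPKM in KL and to 569 and 620 RPKM in KLG4, against 58.8 to 133 RPKM in TRMs, and 5 of the 10 were above 5 RPKM in all 4 libraries. In MDMs KL replicate 2 stood apart with Cx3cr1 at 42.0 RPKM against 5.07 to 7.23 RPKM in the others. Sex and genotype cannot be told apart in TRMs, where Xist was at 0.257 and 0.501 RPKM in KL and at 18.3 and 20.2 RPKM in KLG4. Each of the 4 tumor cell libraries, given as 2 mice per group, held both Xist, at 4.17 to 6.18 RPKM, and the Y-linked Ddx3y, at 8.61 to 17.1 RPKM. How many mice gave each tumor cell library is thus unclear. The p-values in tumor cells therefore also measure the spread between libraries, which may be technical. The KLG4 tumor pair was closer than the KL tumor pair, with a chi-square of 3.28 per gene against 60.5, where counting of independent reads alone gives about 1. Of counts below 30 in these libraries, 25.1% to 32.5% were odd, so reads often came in pairs and this floor is too low. In bulk RNA, fewer cells of a type and less RNA per cell cannot be told apart.

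The members lie on 7 chromosomes of GRCm38, in the coordinates of the deposited table. Acsl4 lies at chrX:142317993-142390535 on the minus strand, Acsl1 at chr8:46471037-46536051, Acsl3 at chr1:78657825-78707743, Lpcat3 at chr6:124663027-124704418, Elovl5 at chr9:77917364-77984519 and Fasn at chr11:120805846-120824547. Chromosome 19 holds the 4 desaturases, Fads2 at chr19:10064164-10101503, Fads1 at chr19:10182888-10196870, Scd2 at chr19:44293676-44306864 and Scd1 at chr19:44394451-44407709. Reads were counted without strand, and 4 members overlap a gene that was also counted in tumor cells, Lpcat3 with Emg1, Acsl1 with Gm45244, Acsl3 with Utp14b and Scd2 with the miRNA gene Mir5114. Of the stretches of 50 bases in their transcripts, 4.56% of those of Scd1 and 3.97% of those of Scd2 occur in other genes, so a small part of the reads of this pair could be split either way.

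The start regions of 3 members are shown because these genes carry the called differences among the acyl-CoA synthetases and the elongases of the set. They are the 250 bases before the start site, 5′ to 3′ on the gene's strand, from RefSeq on GRCm38.p6, which matched 7 of the 10 members. Entries for Fads1, Scd1 and Scd2 were not used here. Capitals mark 3 motifs on either strand, the core of the sterol regulatory element (TCACNCCAC), the CCAAT box (CCAAT) and an E-box (CACGTG).
Acsl1, first start, chr8:46470787-46471036, plus strand: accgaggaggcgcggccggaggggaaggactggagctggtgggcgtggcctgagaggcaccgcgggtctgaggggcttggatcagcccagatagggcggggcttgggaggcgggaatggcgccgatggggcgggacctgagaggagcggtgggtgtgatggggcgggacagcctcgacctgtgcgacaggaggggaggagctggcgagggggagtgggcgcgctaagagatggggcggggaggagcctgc
Acsl1, second start, chr8:46490716-46490965, plus strand: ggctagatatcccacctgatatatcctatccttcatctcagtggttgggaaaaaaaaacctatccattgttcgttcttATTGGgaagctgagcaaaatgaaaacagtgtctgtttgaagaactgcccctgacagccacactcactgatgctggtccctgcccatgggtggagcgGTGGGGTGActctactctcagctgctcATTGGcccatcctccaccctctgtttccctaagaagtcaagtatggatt
Acsl4, chrX:142390536-142390785, minus strand: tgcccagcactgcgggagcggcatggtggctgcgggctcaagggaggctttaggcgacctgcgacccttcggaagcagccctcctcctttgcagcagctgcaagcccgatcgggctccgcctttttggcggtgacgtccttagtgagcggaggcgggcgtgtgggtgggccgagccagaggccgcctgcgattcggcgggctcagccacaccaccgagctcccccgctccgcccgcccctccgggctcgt
Elovl5, chr9:77917115-77917364, plus strand: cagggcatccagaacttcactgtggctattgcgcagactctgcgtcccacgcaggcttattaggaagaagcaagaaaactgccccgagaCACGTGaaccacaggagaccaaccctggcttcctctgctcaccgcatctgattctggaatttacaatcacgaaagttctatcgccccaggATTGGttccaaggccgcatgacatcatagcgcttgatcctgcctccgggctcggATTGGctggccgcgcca
The second start of Acsl1 held the sterol element core, read on the opposite strand, and 2 CCAAT boxes, and Elovl5 held an E-box and 2 CCAAT boxes, whereas the first start of Acsl1 and that of Acsl4 held none of the 3. Of 27025 genes with start regions of the same length, 1.23% held the sterol element core in at least 1 of them, 37.5% a CCAAT box and 6.86% an E-box. Counted the same way, 1 of the 7 members with a start region held the sterol element core (Acsl1), 5 a CCAAT box and 1 the E-box (Elovl5). Matches do not overlap each other in the regions printed. A match is a description of letters and no measurement of binding.

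**Figure D1:**
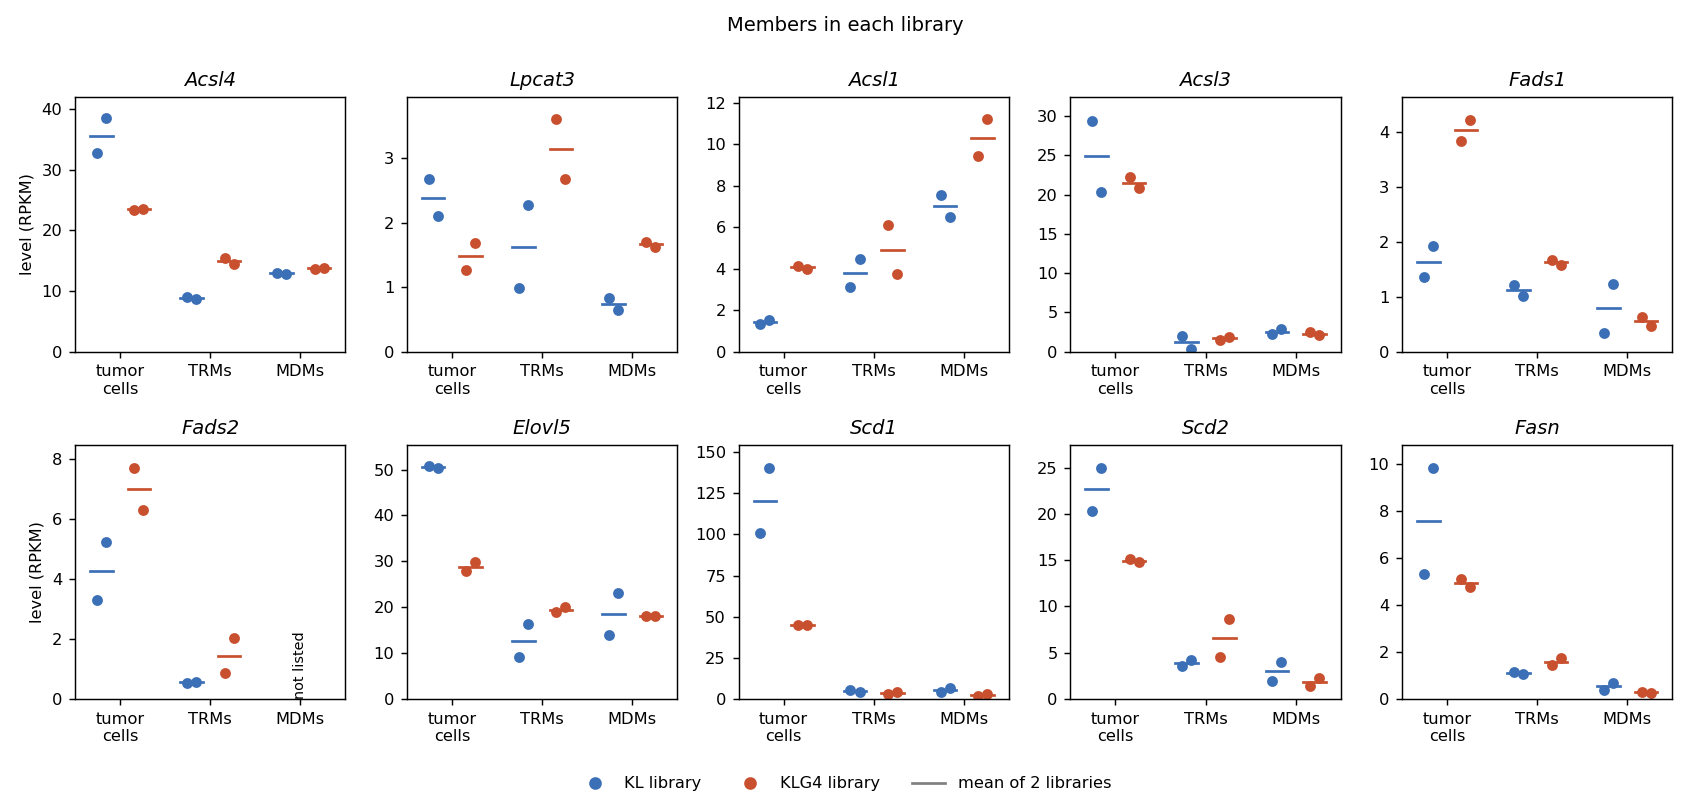
Level of each member in RPKM (vertical axis, linear and from 0, scaled per gene) in the 12 libraries, by population and genotype. Each point is 1 library and each short line the mean of 2. Scd1, Elovl5, Acsl4, Acsl3, Scd2 and Fasn were highest in tumor cells, and Acsl1 was highest in MDMs. Fads2 is not listed in the MDM table.

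Levels were compared between populations to see where these genes were used. RPKM is scaled to gene length, so levels of different genes can be set side by side, but the 3 tables were made separately and levels across them were not tested. In tumor cells of both genotypes the order was Scd1, Elovl5, Acsl4, Acsl3 and Scd2. In TRMs and MDMs of both genotypes Elovl5 came first and Acsl4 came second. The stearoyl-CoA desaturase Scd1 spread most between populations, from 120 ± 28.1 RPKM in KL tumor cells (SD, n = 2) to 2.4 ± 0.744 RPKM in KLG4 MDMs, a ratio of 50.2. The ratio of the highest to the lowest group mean was 25.3 for Fasn, 21.2 for Acsl3 and 12.5 for Scd2, and it was 4.05 for Acsl4 and 3.97 for Elovl5. Most members were thus at their highest in KL tumor cells, and the exceptions were Acsl1, Fads1, Fads2 and Lpcat3.

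Acsl1, the synthetase that is prominent in oxidative and lipid-storing tissues, was highest in KLG4 MDMs at 9.43 and 11.2 RPKM. KL MDMs followed at 7.58 and 6.52 RPKM and KL tumor cells came last at 1.34 and 1.54 RPKM. The groups between them, KLG4 TRMs, KLG4 tumor cells and KL TRMs, overlapped in the order given. Fads1, the delta-5 desaturase, was highest in KLG4 tumor cells at 3.84 and 4.22 RPKM, and no TRM or MDM library exceeded 1.68 RPKM. Fads2, the delta-6 desaturase, was also highest there, with 7.70 and 6.29 RPKM in KLG4 tumor cells and at most 2.03 RPKM in TRMs. Lpcat3 was low everywhere, from 0.649 RPKM in a KL MDM library to 3.61 RPKM in a KLG4 TRM library, and KL TRMs overlapped KL tumor cells, KLG4 tumor cells and KLG4 MDMs, the latter pair also overlapping each other. For Acsl4 no neighbours overlapped in the order KL tumor cells, KLG4 tumor cells, KLG4 TRMs, KLG4 MDMs, KL MDMs and KL TRMs. For Scd1 the KL TRMs overlapped KL MDMs and KLG4 TRMs, and for Elovl5 the KL MDMs overlapped KLG4 MDMs and the TRMs of both genotypes.

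The make-up of each enzyme family was compared within a library, where scaling plays no part. Acsl5, a further synthetase, made up between 53.0% and 67.7% of the summed RPKM of the ACSL family in the 12 libraries, and Acsl4 made up between 18.8% and 26.7%. Acsl3 held 13.8% to 20.4% of the family in tumor cells and at most 5.69% in TRMs and MDMs. Acsl1 held 0.766% and 1.04% in KL tumor cells, 3.82% and 3.86% in KLG4 tumor cells and between 12.9% and 18.0% in MDMs. The share of Scd1 in the sum of Scd1 and Scd2 was 83.2% and 84.9% in KL tumor cells against 74.96% and 75.3% in KLG4, 61.5% and 50.5% in KL TRMs against 42.0% and 33.8% in KLG4, and 69.2% and 62.6% in KL MDMs against 57.2% and 56.6% in KLG4. It was lower in both KLG4 libraries than in both KL libraries in each of the 3 populations. In TRMs and MDMs Scd1 was between 1.87 and 6.70 RPKM, and the AT2 markers also summed to less in KLG4 there. They summed to 171 and 182 RPKM in KL TRMs against 36.1 and 69.8 RPKM in KLG4. In MDMs they summed to 159 and 381 RPKM against 41.8 and 75.2 RPKM. The part of such transcripts in the shares was not tested. Elovl5 held 69.4% to 84.2% of the elongase sum in every library.

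**Figure D2:**
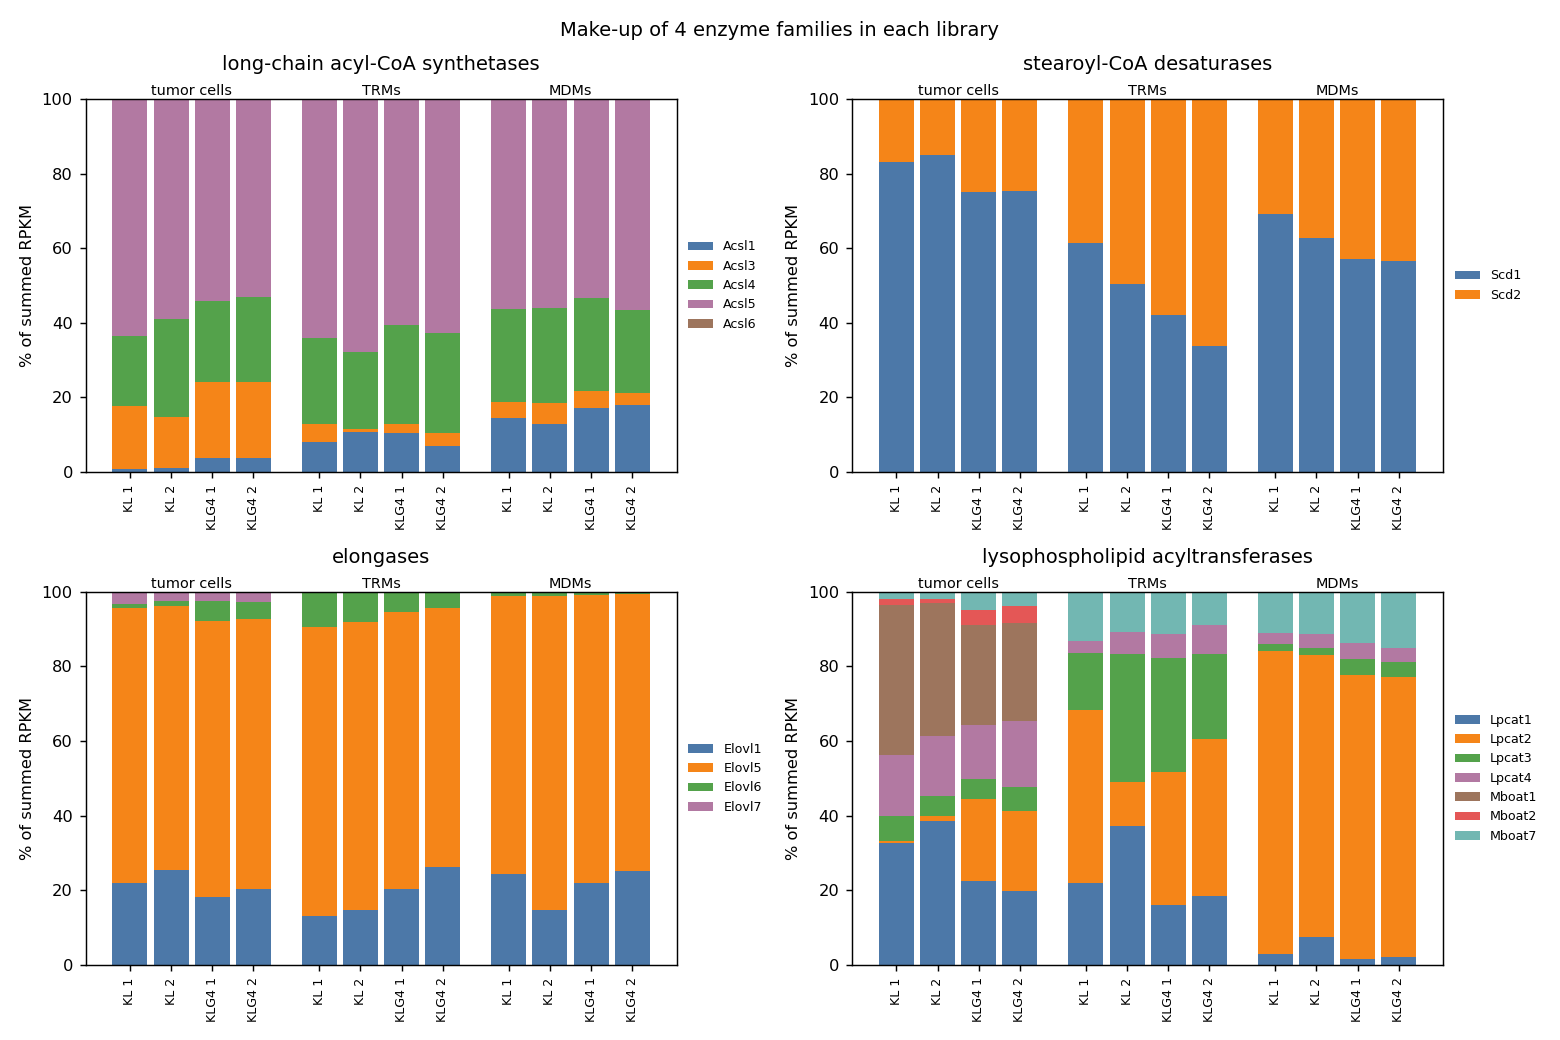
Share of each gene in the summed RPKM of its enzyme family (vertical axis, percent, 0 to 100) in the 12 libraries, for 4 families. Each bar is 1 library. Acsl5 and Elovl5 took the largest share of their families in every library, the share of Scd1 was lower in KLG4 than in KL, and Lpcat2 took 75.1% to 81.3% of the acyltransferases in MDMs but 0.643% and 1.57% in KL tumor cells.

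Ratios between members of different families were also taken within each library. The log2 ratio of Acsl4 to Scd1 was higher in both KLG4 libraries in every population, at -1.62 and -1.86 in KL tumor cells against -0.94 and -0.94 in KLG4, at 0.64 and 1.01 in KL TRMs against 2.22 and 1.71, and at 1.54 and 0.94 in KL MDMs against 2.87 and 2.24. The log2 ratio of Acsl1 to Acsl3 was -4.46 and -3.72 in KL tumor cells and -2.42 and -2.39 in KLG4, and it was also higher in both KLG4 libraries in MDMs, at 1.75 and 1.18 in KL against 1.89 and 2.44. In TRMs, where Acsl3 rested on few reads, it overlapped at 0.66 and 3.57 in KL against 2.06 and 0.97. The log2 ratio of Scd1 to Fasn was 4.23 and 3.83 in KL tumor cells and 3.14 and 3.24 in KLG4, and it was also lower in both KLG4 libraries in TRMs, at 2.32 and 2.02 in KL against 1.20 and 1.34. In MDMs it overlapped at 3.53 and 3.25 in KL against 2.54 and 3.40. The ratio of Acsl4 to Acsl3 overlapped between genotypes in all 3 populations. With 2 against 2 libraries a two-sided permutation test cannot give a p below 0.33, so these ratios are descriptions. How often other pairs of genes behave in this way was not counted. The part of epithelial and AT2 transcripts in the ratios of TRMs and MDMs was not tested.

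In tumor cells, KLG4 was compared with KL. Of the 10 members, all of which were tested, 6 passed an adjusted p of 0.05 by limma, where 40.3% of 13770 genes did. Acsl1 and Fads1 rose, against 20.6% of genes that rose, and Acsl4, Elovl5, Scd1 and Scd2 fell, against 19.6%. Lpcat3, Acsl3, Fads2 and Fasn did not pass. Libraries of the genotypes did not overlap for 9 of 10 members, where this held for 74.7% of genes. In 3 of these KLG4 was higher (32.5% of genes) and in 6 lower (42.2%). The median log2 difference was -0.57 over the members and -0.09 over all genes.

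**Figure D3:**
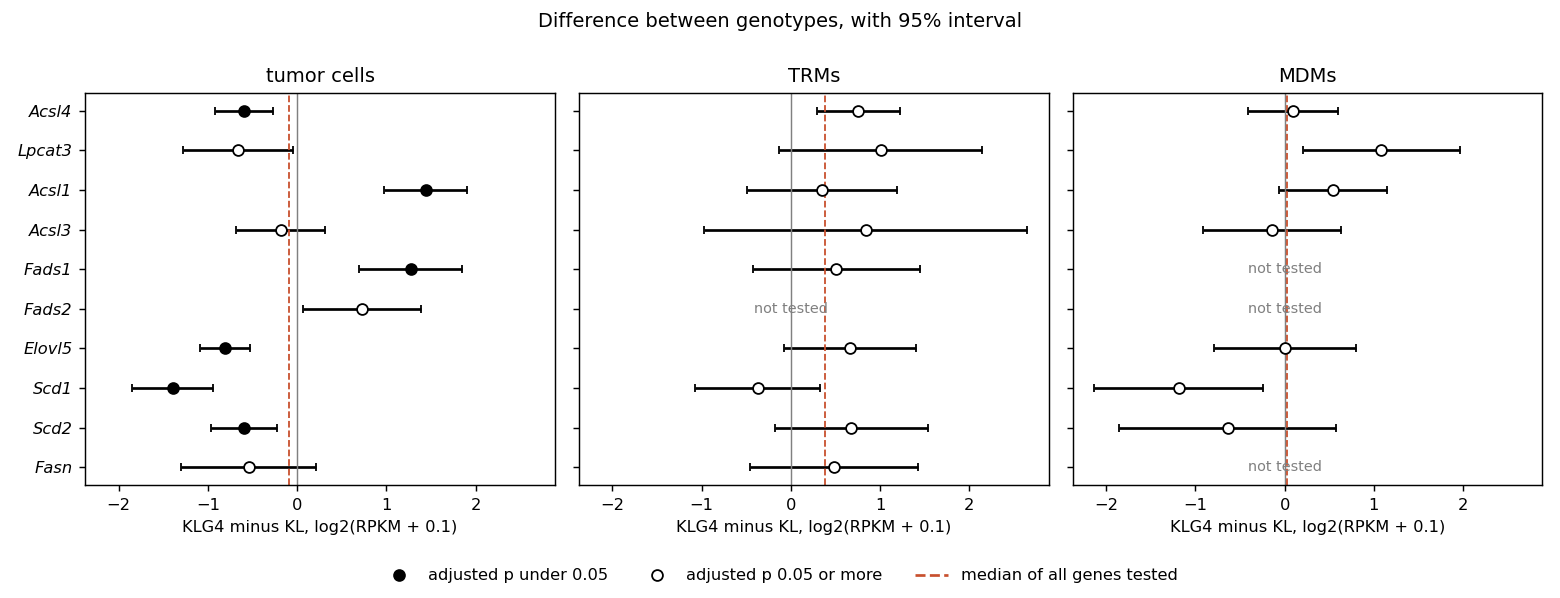
Log2 difference between KLG4 and KL on the log2(RPKM + 0.1) scale (horizontal axis) for each member in the 3 populations, with its 95% interval from limma. Filled points have an adjusted p under 0.05 and dashed lines mark the median of all genes tested. Filled points appear in tumor cells, at 1.44 for Acsl1 and -1.39 for Scd1, and none appear in TRMs or MDMs.

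Among the synthetases, Acsl4 was at 32.8 and 38.5 RPKM in KL and at 23.5 and 23.6 RPKM in KLG4. Both KLG4 libraries were below both KL libraries, and the log2 difference was -0.59 ± 0.13 (SE, adjusted p = 0.0185), a fall of the mean by a factor of 1.52. Acsl1 was at 1.34 and 1.54 RPKM in KL and at 4.15 and 3.98 RPKM in KLG4. It rose 2.83-fold, by 1.44 ± 0.19 on the log2 scale (SE, adjusted p = 0.00313). Acsl1 overlaps Gm45244 on the other strand, which was at 0.0621 and 0.105 RPKM in KL and 1.31 and 0.799 RPKM in KLG4, and without strand their reads cannot be told apart. Acsl3 was at 29.4 and 20.3 RPKM in KL and at 22.2 and 20.8 RPKM in KLG4, so that its groups overlapped, and its log2 difference of -0.19 had a 95% interval from -0.69 to 0.32. Lpcat3, which uses the acyl-CoA made by these enzymes, was at 2.67 and 2.10 RPKM in KL and at 1.27 and 1.69 RPKM in KLG4, a log2 difference of -0.66 that did not pass (adjusted p = 0.0824).

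Of the 4 desaturases Fads1 rose, Scd1 and Scd2 fell, and Fads2 did not pass. Fads1 was at 1.35 and 1.91 RPKM in KL and at 3.84 and 4.22 RPKM in KLG4, and it rose by 1.27 ± 0.23 on the log2 scale (SE, adjusted p = 0.00965). Fads2, which acts before it in the same route, was at 3.30 and 5.24 RPKM in KL and at 7.70 and 6.29 RPKM in KLG4, with a log2 difference of 0.73 and a 95% interval from 0.07 to 1.39 (adjusted p = 0.0767). Over the alternatives the difference of Fads2 ran from 0.40 to 1.06, and it passed in 3 of 15. Scd1 was at 100.6 and 140 RPKM in KL and at 45.1 and 45.2 RPKM in KLG4. It fell by 1.39 on the log2 scale (SE 0.18, adjusted p = 0.0031), and the KL mean was 2.67 times the KLG4 mean. Scd2 was at 20.4 and 25.0 RPKM in KL and at 15.1 and 14.8 RPKM in KLG4, and it fell by 0.59 (SE 0.15, adjusted p = 0.027). Mir5114, which lies within Scd2 on the same strand, was counted at 166 and 218 reads in KL and at 61 and 40 reads in KLG4, and reads of the pair cannot be told apart. Scd1, the most abundant member, thus also showed the largest decrease among the members. Elovl5, which lengthens the products of FADS2, was at 50.7 and 50.4 RPKM in KL and at 27.9 and 29.8 RPKM in KLG4, and it fell by 0.81 (SE 0.11, adjusted p = 0.00399). Fasn was at 5.35 and 9.84 RPKM in KL and at 5.13 and 4.77 RPKM in KLG4. The KL libraries of Fasn differed more than the genotypes did, and its log2 difference of -0.54 did not pass (adjusted p = 0.205).

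With the call of the study, at least 2-fold with p below 0.05 before adjustment, 3 of 10 members were called (Acsl1, Fads1 and Scd1), where 23.8% of genes were. Without either KLG4 library 0 members were called by limma, where 14.5% and 14% of genes were, with adjusted p between 0.0542 and 0.206 for the 6 genes, while the directions stayed. In those fits the lone KLG4 library is assumed to vary like the KL pair.

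Markers of other cells moved with the genotype in the same 4 tumor libraries. The summed level of the 8 leukocyte markers was 32.7 and 38.0 RPKM in KL and 174 and 177 RPKM in KLG4, that of the 6 neutrophil markers was 179 and 272 RPKM against 2250 and 2154 RPKM, and that of the 10 fibroblast markers was 15.7 and 21.0 RPKM against 516 and 531 RPKM. The 7 epithelial markers summed to 8466 and 6289 RPKM in KL and to 3630 and 3646 RPKM in KLG4, and the 10 AT2 markers to 3641 and 4102 RPKM against 1260 and 1277 RPKM. No marker of these lists was at 0 in all 4 libraries. The share of reads in mitochondrial genes and their nuclear copies was 7.38% and 8.26% in KL tumor cells and 14.8% and 14.7% in KLG4 tumor cells. Acsl1 in KLG4 tumor cells lay below its level in every MDM library, whereas Fads1 there lay above every TRM and MDM library and Fads2 above every TRM library. The part of these cells, or of the mitochondrial share, in the differences of the members was not tested.

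The members were also set beside the epithelial markers of the same library by subtracting the mean log2 of those 7 markers, a description chosen after the values were seen. The markers fell themselves (median -1.03 on the log2 scale), so on this scale 85.3% of 13770 genes were higher in both KLG4 libraries, with a median difference of 0.94. Of the members 7 of 10 were, with a median of 0.47, and 3 overlapped (Elovl5, Scd1 and Fasn), where 10.8% of genes did. Acsl4 was at -4.03 and -3.40 in KL and at -3.27 and -3.28 in KLG4. Scd1 was at -2.41 and -1.54 in KL and at -2.33 and -2.34 in KLG4. Acsl1 and Fads1 were higher by 2.47 and 2.30 on average. Relative to the AT2 markers, which fell by a median of 1.56, 9 of 10 members were higher in both KLG4 libraries, where 93% of genes were, and Scd1 overlapped. The counts of members were thus no higher than those of all genes on either scale.

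**Figure D4:**
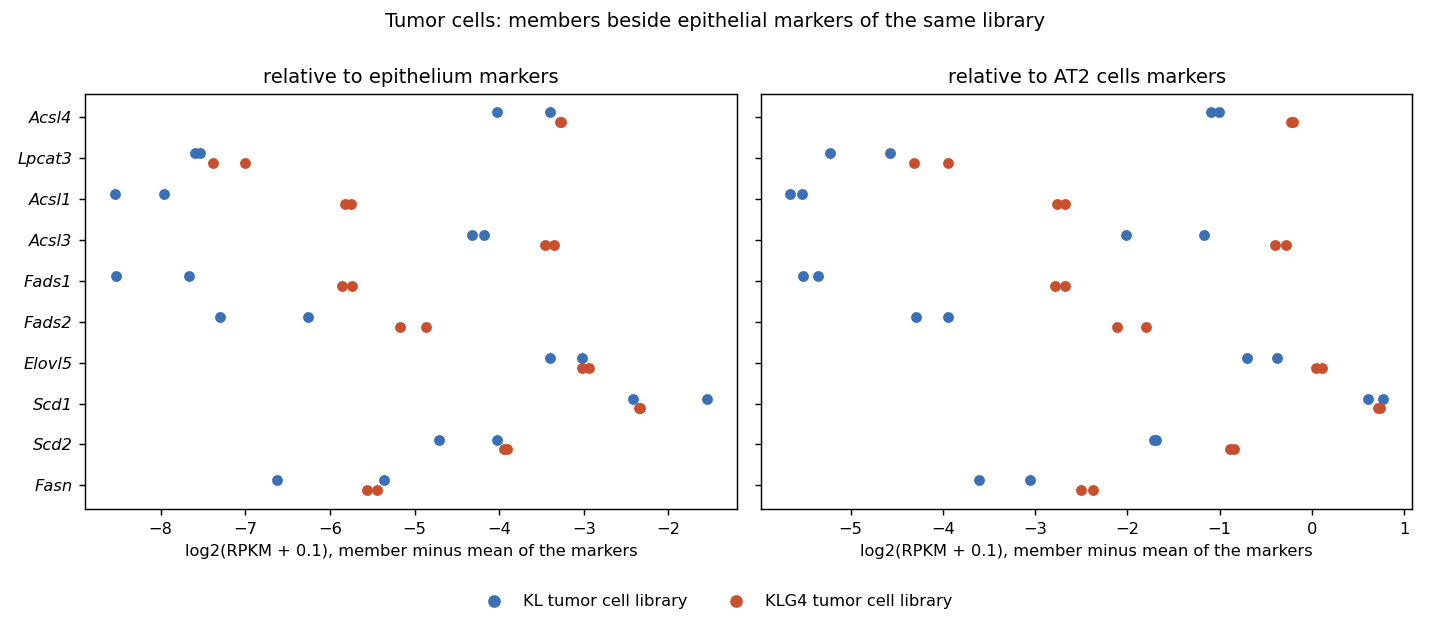
Members in the 4 tumor cell libraries as log2(RPKM + 0.1) minus the mean of the epithelial markers (left) or the AT2 markers (right) of the same library (horizontal axes). Each point is 1 library. Relative to epithelial markers 7 of 10 members were higher in both KLG4 libraries (85.3% of all genes), and relative to AT2 markers 9 were (93% of all genes) and Scd1 overlapped.

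The other genes of the pathway were followed through 7 lists of 55 genes, of which 36 were tested in tumor cells. In KLG4, 5 rose and 18 fell, where 20.6% and 19.6% of all genes did, and the median log2 difference over the 36 was -0.47. Of the 5 that rose, 3 (Slc27a3, Elovl6 and Lpcat2) entered the test only through their KLG4 libraries, so that they could only be higher there. Without KLG4 replicate 1 or 2 of tumor cells, 4 or 6 of these genes passed, where 14.5% or 14% of all genes did. All 8 tested genes of the elongation list passed, 7 of them lower. Tecr, which closes each elongation cycle by reducing the double bond, was at 34.0 and 27.0 RPKM in KL and at 10.9 and 11.3 RPKM in KLG4, a fall of 1.44 on the log2 scale (adjusted p = 0.00175). The elongase Elovl1, which makes very long saturated chains, fell by 1.13 (adjusted p = 0.00569), and Hsd17b12, the ketoacyl reductase of the cycle, fell by 0.82. Elovl6, which turns palmitate into stearate, was the only riser of this list. It was at 0.756 and 0.905 RPKM in KL and at 1.99 and 1.87 RPKM in KLG4, so that it passed the filter on low values only through KLG4.

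Of the other synthetases 2 rose and 2 fell of 5 tested, where 20.6% and 19.6% of all genes did. Acsl5 was at 111 and 87.0 RPKM in KL and at 58.7 and 54.7 RPKM in KLG4, a fall of 0.79 (adjusted p = 0.012). Acsbg1, a synthetase of the bubblegum family, was at 10.4 and 4.20 RPKM in KL and at 2.08 and 2.09 RPKM in KLG4, a fall of 1.62 (adjusted p = 0.0306). The fatty acid transport protein Slc27a3 rose by 1.503 from 0.266 and 0.412 RPKM to 1.24 and 1.03 RPKM (adjusted p = 0.0118). It also passed the filter only through KLG4, and with quantile scaling its difference was 0.24 (adjusted p = 0.558, range over all alternatives 0.00724 to 0.558).

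Of 5 tested lysophospholipid acyltransferases 1 rose and 3 fell, where 20.6% and 19.6% of all genes did. Lpcat1, the AT2 enzyme of surfactant lecithin, was at 13.5 and 15.8 RPKM in KL and at 5.12 and 5.20 RPKM in KLG4, a fall of 1.48 (adjusted p = 0.00136). Lpcat2, an enzyme of inflammatory cells that makes platelet-activating factor, was at 0.266 and 0.644 RPKM in KL and at 4.93 and 5.60 RPKM in KLG4, a rise of 3.36 on the log2 scale (adjusted p = 0.00186) in a gene that passed only through KLG4. Its level in MDMs was between 23.6 and 36.0 RPKM. The leukocyte markers rose in the same libraries, and their part in Lpcat2 was not tested. Mboat7, which favours arachidonic acid, was between 0.785 and 1.13 RPKM in tumor cells and was not tested there.

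Of the other genes of de novo synthesis, 2 fell of 5 tested, where 19.6% of all genes fell. Acly, which makes cytosolic acetyl-CoA, was at 21.4 and 25.2 RPKM in KL and at 15.9 and 15.3 RPKM in KLG4, a fall of 0.57 (adjusted p = 0.0247), and the citrate carrier Slc25a1 fell by 0.65. Acaca, the carboxylase before FASN, was at 1.15 and 2.01 RPKM in KL and at 1.25 and 1.28 RPKM in KLG4, with overlap. Srebf1, which drives Scd1 and Fasn transcription, was at 8.02 and 7.89 RPKM in KL and at 5.63 and 5.96 RPKM in KLG4, a log2 difference of -0.45 that did not pass (adjusted p = 0.0535). Of 7 tested regulators 1 passed, where 40.3% of all genes did. This was the liver X receptor Nr1h3, which rose by 0.61. The only other tested desaturase, Fads3, and 3 of 5 thioesterases (Acot7, Acot9 and Acot13) fell, where 19.6% of all genes did.

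**Figure D5:**
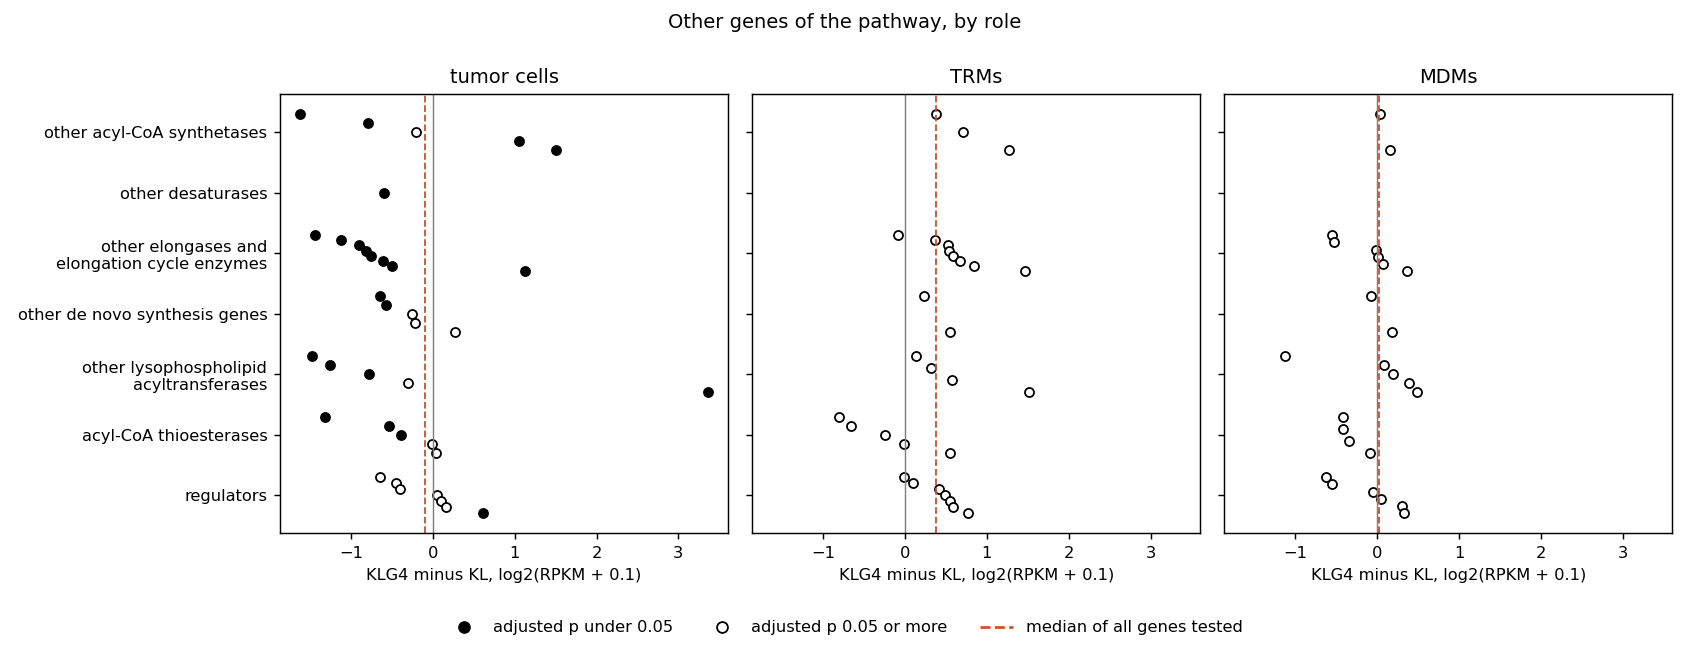
Log2 difference between KLG4 and KL on the log2(RPKM + 0.1) scale (horizontal axis) of the other pathway genes in 7 lists by role, for the 3 populations. Each point is 1 gene, filled where the adjusted p was under 0.05, and dashed lines mark the median of all genes tested. In tumor cells 18 genes fell and 5 rose, 3 of which entered the test only through KLG4, with Lpcat2 at 3.36 farthest from 0, and no point is filled in TRMs or MDMs.

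The same comparison was made in the libraries labelled TRMs and MDMs. In TRMs, 9 of 10 members were tested and 0 passed, where 1.8% of 10990 genes did. At an unadjusted p under 0.05, limma gave 1 member (Acsl4), where 28.3% of genes were. No member was called by voom on the recovered reads. The median of all genes was shifted to 0.38 in this table and was 0.00 after TMM scaling, so differences are read against it. The share of reads in mitochondrial genes and their nuclear copies was 31.5% and 22.3% in KL and 2.95% and 5.78% in KLG4. The median over the 9 members was 0.67.

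Acsl4 was at 8.99 and 8.64 RPKM in KL TRMs and at 15.5 and 14.4 RPKM in KLG4 TRMs. Both KLG4 libraries were higher, with a log2 difference of 0.76 and a 95% interval from 0.29 to 1.22 (adjusted p = 0.0833), which was 0.37 after TMM scaling. Acsl4 lies on the X chromosome, and sex differed with genotype here. Elovl5 was at 9.14 and 16.3 RPKM in KL and at 18.9 and 20.02 RPKM in KLG4 (log2 difference 0.67, adjusted p = 0.208). Lpcat3 was at 0.979 and 2.28 RPKM in KL and at 3.61 and 2.68 RPKM in KLG4 (log2 difference 1.00, adjusted p = 0.214). Those genes were higher in both KLG4 libraries, as were Fads1, Scd2 and Fasn, so 6 of 9 did not overlap in that direction, where 53.7% of genes did. Scd2 was at 3.59 and 4.21 RPKM in KL and at 4.59 and 8.61 RPKM in KLG4. Fads1 was at 1.22 and 1.01 RPKM in KL and at 1.68 and 1.58 RPKM in KLG4, and Fasn at 1.15 and 1.06 RPKM against 1.45 and 1.73 RPKM.

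Scd1 was the only tested member with a negative difference in TRMs, at 5.75 and 4.30 RPKM in KL and at 3.32 and 4.40 RPKM in KLG4 (log2 difference -0.37, 95% interval -1.07 to 0.33), and its groups overlapped. Over the alternatives the difference of Scd1 ran from -0.82 to -0.17 and never passed. Of 6 epithelial markers tested in TRMs 0 passed by limma and 5 had an unadjusted p under 0.05, with 4 negative and 2 positive differences. Their list summed to 129 and 146 RPKM in KL and to 65.9 and 105 RPKM in KLG4, Krt8 being at 29.8 and 33.2 RPKM against 2.01 and 6.64 RPKM and Cdh1 at 16.8 and 26.2 RPKM against 33.3 and 39.9 RPKM. Of 8 AT2 markers tested 2 passed as lower in KLG4 (Sftpa1 and Sftpd) and 6 had negative differences, with a median of -1.51 on the log2 scale, and the list of 10 summed to 171 and 182 RPKM in KL and to 36.1 and 69.8 RPKM in KLG4. The part of these markers in Scd1 was not tested. Acsl1 overlapped at 3.12 and 4.49 RPKM against 6.10 and 3.76 RPKM, and its log2 difference of 0.35 turned to -0.03 under TMM scaling. Acsl3 rested on few reads, 15 in KL replicate 2 and 86 to 171 in the others, and it overlapped. Fads2 was below the filter at 0.531 and 0.580 RPKM in KL and 0.867 and 2.03 RPKM in KLG4. None of the 29 tested genes of the pathway lists passed in TRMs, and 4 had an unadjusted p under 0.05 by limma, where 28.3% of all genes had. Acsl5 was between 25.2 and 28.3 RPKM in KL and 33.8 and 35.6 RPKM in KLG4, and Elovl1 was at 1.54 and 3.13 RPKM against 5.17 and 7.58 RPKM (log2 difference 1.47, adjusted p = 0.0969).

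In MDMs 7 members were tested and 0 passed, where 0% of 10475 genes did. At an unadjusted p under 0.05, limma gave 2 members, Lpcat3 and Scd1, where 6.74% of genes were below it. Lpcat3 entered the test only through its KLG4 libraries, which leaves Scd1 as the 1 member to set against that share. Scd1 also changed at least 2-fold, where 4.11% of genes met both conditions. Voom on the recovered reads called 0 members. Lpcat3 was at 0.824 and 0.649 RPKM in KL and at 1.70 and 1.62 RPKM in KLG4 (log2 difference 1.08, adjusted p = 0.679), on 22 to 145 reads. Scd1 was at 4.44 and 6.70 RPKM in KL and at 1.87 and 2.92 RPKM in KLG4 (log2 difference -1.19, adjusted p = 0.679). Both KLG4 libraries of Scd1 lay below both KL libraries. The epithelial markers summed to 74.2 and 262 RPKM in KL MDMs and to 18.5 and 59.9 RPKM in KLG4 MDMs, with 5 negative and 1 positive difference of 6 tested. The AT2 markers summed to 159 and 381 RPKM against 41.8 and 75.2 RPKM, with 6 negative and 1 positive of 7 tested. Krt8 was at 23.5 and 89.5 RPKM in KL MDMs and at 2.17 and 17.0 RPKM in KLG4 MDMs, highest in the library in which Scd1 was highest. The part of these markers in Scd1 of MDMs was not tested.

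Acsl4 hardly varied among MDM libraries, at 12.9 and 12.9 RPKM in KL and at 13.7 and 13.9 RPKM in KLG4, and the 95% interval of its log2 difference of 0.09 ran from -0.41 to 0.60. Elovl5 was at 14.0 and 23.2 RPKM in KL and at 18.2 and 18.1 RPKM in KLG4, so that both KLG4 libraries lay between the KL ones. Acsl1 was higher in both KLG4 libraries (log2 difference 0.54, 95% interval -0.06 to 1.14, adjusted p = 0.679). Scd2 was at 1.98 and 3.99 RPKM in KL and at 1.40 and 2.24 RPKM in KLG4, and Acsl3 was between 2.06 and 2.88 RPKM in the 4 libraries. Both overlapped. Fads1, between 0.343 and 1.23 RPKM, and Fasn, between 0.277 and 0.704 RPKM, were below the filter, and Fads2 was not listed. None of the 25 tested pathway genes passed in MDMs by limma or had an unadjusted p under 0.05, where 6.74% of all genes had, and voom called 0. Among them Lpcat1 was at 1.23 and 2.33 RPKM in KL and at 0.594 and 0.874 RPKM in KLG4.

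Without KL replicate 1 of MDMs, limma called 2 members, Lpcat3 and Scd1 (adjusted p = 0.0481 and 0.0428, the lowest over all alternatives, of which the highest was 0.9999 for both), and 25.6% of all genes, where the fit of the 4 libraries called 0. Lpcat3 again entered only through KLG4, so that Scd1 is the 1 member to set against that share. The remaining KL library is the replicate that stood apart, and the lone KL library is assumed to vary like the KLG4 pair. It also differs from both KLG4 libraries in Xist, at 0.839 RPKM against 19.4 and 19.4 RPKM. Without KL replicate 2 of TRMs, 2 members were called as higher in KLG4, Lpcat3 and Elovl5 (adjusted p = 0.0356 and 0.0279, against up to 0.634 and 0.557 under other alternatives), where 21.7% of all genes were called.

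The effect of genotype in tumor cells was then compared with that in TRMs and MDMs in a fit of the 12 libraries. For 5 of 9 members tested the effect differed between tumor cells and TRMs, where it did for 28.9% of 11504 genes. Acsl4 differed by -1.35 on the log2 scale (95% interval -1.83 to -0.87, adjusted p = 0.0019), with a fall in tumor cells and a higher level in KLG4 TRMs. Elovl5 differed by -1.47 (adjusted p = 0.00855), Lpcat3 by -1.67 (adjusted p = 0.0271), Scd2 by -1.27 (adjusted p = 0.0495) and Acsl1 by 1.09 (adjusted p = 0.037). Scd1 differed by -1.02 and did not pass (adjusted p = 0.0612). After TMM scaling, which removes the shift of all genes in TRMs, 3 members stayed past the threshold: Acsl4 at -0.89, Elovl5 at -1.01 and Acsl1 at 1.55, where 20.5% of genes passed. Without either KLG4 TRM library Acsl4 was the 1 member that passed (6.56% and 9.89% of genes), without either KLG4 tumor library 2 members passed (16.1% and 16.2%), and without either KL MDM library 3 did (28.8% and 28.7%). Between tumor cells and MDMs 0 of 9 members differed at an adjusted p of 0.05 by limma where 12.2% of genes did, and 5 had an unadjusted p under 0.05, where 24.5% of genes did. The 9 include Fads1 and Fasn, which were below the filter in MDMs. The 5 were Acsl1, Acsl4, Elovl5, Fads1 and Lpcat3, and Lpcat3 had passed the filter in MDMs only through KLG4. Without KL replicate 1 of MDMs 3 members and 36.1% of genes passed, and without KL replicate 2 of MDMs 4 members and 23.4% of genes did. Between TRMs and MDMs 0 members and 0% of genes passed by limma, 2 members and 18.1% of genes passed without KL replicate 1 of MDMs, and 2 members (Acsl4 and Scd2) had an unadjusted p under 0.05, where 12.4% of genes did.

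Genes that followed Acsl4 and Scd1 over the 12 libraries were looked up among the 8401 genes that all 3 tables list and that reached 5 RPKM in at least 1 library. The points share library, population and depth, and most of the spread lies between populations. Closest to Acsl4 were Ppm1b, a protein phosphatase (Pearson r = 0.987), the hydrolase Abhd2 (0.982) and the junction protein gene Afdn (0.981). Closest to Scd1 were Plxnb1, a semaphorin receptor (0.993), the zinc finger gene Zfp7 (0.991) and the integrin subunit Itga3 (0.991). Plxnb1 was between 4.67 and 13.1 RPKM in tumor cells and at most 0.323 RPKM in TRMs and MDMs.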

How the data were processed

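RNA of cells sorted from mouse lung tumors was sequenced as poly(A)-selected, non-directional, paired-end libraries. Per the study's methods, reads were trimmed with Trim Galore 0.6.4, aligned with HISAT2 2.0.5 to GRCm38 and counted per gene without strand by featureCounts 2.0.0. The authors deposited RPKM values per library, in 1 table for each population, with gene lengths in the tumor cell table. The tables also hold fold changes and p-values of the authors' own comparisons, which were not used. The sort gates of TRMs and MDMs and the animals behind each of their libraries are not given in the sources used here.

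Groups were taken from the sample titles, and the members and lists were chosen with earlier results of these data known. Genes at 1 RPKM or more in at least 2 of the 4 libraries of a table were kept, and log2(RPKM + 0.1) of KLG4 was compared with KL by limma 3.58.1 with a mean trend (R 4.3.3), 4 libraries per fit. Benjamini-Hochberg adjustment ran over all genes of a table, and all p-values are two-sided. Fold changes on this scale understate changes of low genes. Differences between populations were tested by limma over the 12 libraries with a weight per population. Genes were named by a fixed rule, all members, a preset group of pathway genes, up to 3 further called pathway genes of largest difference in each direction per population, Gpx4, and the 3 genes closest to Acsl4 and to Scd1 by Pearson correlation. Other pathway genes and markers named in the text were chosen after their values were seen. Whole reads were recovered from the RPKM steps and tested by limma-voom as an alternative, and depth ran from 9140750 to 36616982 reads per library. Alternatives were other scalings, pseudocounts, filters and libraries left out. On simulated data of these sizes limma recovered 98, 83 and 64 of 100 genes changed 2-fold in tumor cells, TRMs and MDMs, with 18, 19 and 21 false calls. The changed genes had a mean of at least 5 RPKM and all genes shared the same spread. These values therefore do not cover members at lower levels or genes that vary more.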

Additional observations from a re-analysis of the deposited data

Results flagged for a closer look

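The effect of genotype differed between tumor cells and TRMs, by a test of the difference itself (limma over the 12 libraries), for 5 of 9 members, where 28.9% of 11504 genes differed. After TMM scaling, which removes the shift of all genes in TRMs, Lpcat3 and Scd2 did not pass (adjusted p = 0.0877 and 0.174, ranges over all alternatives 0.00267 to 0.19 and 0.0298 to 0.349). On the log2 scale, the KLG4 minus KL difference in tumor cells minus that in TRMs was 1.09 for Acsl1, -1.35 for Acsl4, -1.47 for Elovl5, -1.67 for Lpcat3 and -1.27 for Scd2. For Acsl4, Elovl5, Lpcat3 and Scd2 both KLG4 libraries lay below both KL libraries in tumor cells and above them in TRMs, and for Acsl1 the TRM libraries overlapped. In TRMs, sex and genotype cannot be told apart, and the mitochondrial share of reads differed with genotype there and, in the opposite direction, in tumor cells (7.38% and 8.26% in KL against 14.8% and 14.7% in KLG4).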

How the results depend on the processing

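The 6 called members of tumor cells kept their direction under all alternatives in which they were tested (Acsl1 and Fads1 were not tested with a mean of at least 5 RPKM), with log2 differences between 1.06 and 1.59 for Acsl1, 0.94 and 1.51 for Fads1, -0.71 and -0.48 for Acsl4, -0.86 and -0.70 for Elovl5, -1.63 and -1.15 for Scd1 and -0.74 and -0.44 for Scd2. Leaving out 1 library gave 0 to 9 members called in tumor cells (14% to 53.5% of all genes), 0 where either KLG4 library was left out (14.5% and 14%) and 9 where KL replicate 2 was (53.5%), and 0 to 2 in TRMs (1.03% to 21.7%) and in MDMs (0% to 25.6%). Outside those fits, Scd2 was the only tested member of the 6 to lose its call, when reads were rescaled outside mitochondrial genes and their copies (adjusted p = 0.0574) and without a mean trend (adjusted p = 0.0504), in a range of 0.00284 to 0.206. Among the members not called in tumor cells, Fads2 passed in 3 of 15 alternatives, Lpcat3 in 2 of 14, and Acsl3 and Fasn in 1 of 15 each. The threshold of the study gave 3 members in tumor cells (23.8% of genes) and 2 in MDMs (4.11% of genes), of which Lpcat3 entered the test only through KLG4. Pathway genes called in tumor cells were 23 (40.3% of all genes), and 15 with a mean of at least 5 RPKM (46.7%), 15 when rescaled outside mitochondrial genes and copies (36.4%), 10 by the threshold of the study (23.8%) and 4 to 24 with 1 library left out (14% to 53.5%). In TRMs 0 became 1 with a mean of at least 5 RPKM (9.61%), 3 by the threshold of the study (14.1%) and 0 to 6 with 1 library left out (1.03% to 21.7%), and in MDMs 0 to 5 with 1 left out (0% to 25.6%). For the difference between tumor cells and TRMs, 5 members (28.9% of genes) became 3 with TMM scaling (20.5%), 2 with equal weights (20.3%) and 1 to 7 with 1 library left out (6.56% to 40.4%). That between tumor cells and MDMs gave 1 member at a pseudocount of 1 (12.3%) and 0 to 4 with 1 library left out (1.45% to 36.1%), and that between TRMs and MDMs gave 0 to 2 (0% to 18.1%). The cause was not tested.

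Same-numbered KL and KLG4 libraries did not deviate together (correlations 0.0187, -0.0596 and 0.0545), so the replicate block was not used. With it 1 pathway gene passed in TRMs (4.28% of genes) and 3 members differed between tumor cells and TRMs (23.1% of genes).

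Scaling moved all genes. Tumor cells gave 2843 higher calls and 2700 lower calls, 3058 and 1989 with TMM, 3062 and 1948 when rescaled outside mitochondrial genes and copies, 2585 and 4130 with quantile scaling and 1311 and 1973 with a mean of at least 5 RPKM. In TRMs 150 higher and 48 lower became 8 and 22 with TMM, 8 and 23 when rescaled outside mitochondrial genes and copies, 32 and 34 outside mitochondrial genes alone, 23 and 37 with quantile scaling and 427 and 350 by voom.

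Differences that did not pass turned sign. In TRMs TMM scaling turned Acsl1 to -0.034, Acly to -0.16, Acsl5 to -0.014 and Lpcat1 to -0.24, and rescaling outside mitochondrial genes and copies turned them to -0.034, -0.16, -0.013 and -0.24. Quantile scaling turned Acsl1 to -0.064, Acly to -0.12, Lpcat1 to -0.29 and Mboat7 to -0.00412. Voom turned Acly to -0.16, Acsl5 to -0.00145 and Lpcat1 to -0.29, and rescaling outside mitochondrial genes turned Lpcat1 to -0.0012. In MDMs Elovl5 turned to -0.00214 with TMM, -0.011 with quantile scaling, -0.018 outside mitochondrial genes and -0.051 outside those and copies, Tecr turned to 0.014 with quantile scaling and Srebf1 to -0.00662 outside mitochondrial genes and copies. With 1 library left out, the range was -0.45 to 0.081 for Acsl3 and -0.63 to 0.12 for Acaca in tumor cells. In TRMs it was -0.22 to 1.90 for Acsl3, -0.38 to 0.21 for Elovl6 and -0.25 to 0.52 for Lpcat1. In MDMs it was -0.31 to 0.028 for Acsl3, -0.35 to 0.37 for Elovl5, -0.085 to 0.44 for Acly, -0.21 to 0.39 for Lpcat2, -0.054 to 0.15 for Srebf1 and up to 0.13 for Tecr.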

Other observations

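Gpx4 itself also varied outside the tumor cells. It was at 89.8 and 88.2 RPKM in KL TRMs and at 53.8 and 57.0 RPKM in KLG4 TRMs, a log2 difference of -0.68 that did not pass (adjusted p = 0.0697 by limma). The median of all genes in TRMs was 0.38, and the call of Gpx4 there was not stable over the alternatives. KL MDMs had 44.9 and 71.3 RPKM and KLG4 MDMs had 93.6 and 97.7 RPKM, a log2 difference of 0.76 (adjusted p = 0.679). Both KLG4 libraries were thus lower in TRMs and higher in MDMs. The study reports rearranged Gpx4 selectively in sorted tumor cells and no drop of GPX4 protein in CD45-positive immune cells. How many cells of the TRM and MDM libraries recombined the allele is not measured here.

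A pair of enzymes of phospholipid remodelling were highest in the libraries labelled MDMs, which hold neutrophil markers at very high levels. Mboat7 was between 3.58 and 6.31 RPKM in MDMs and at most 1.35 RPKM in the other libraries. Lpcat2 was between 23.6 and 36.0 RPKM in MDMs and between 0.775 and 4.996 RPKM in TRMs, where KL replicate 2 was the lowest.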
